A study of Mus musculus with 8 samples.

Results

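The comparison of a short hairpin RNA against Pcbp1 with a scrambled hairpin in mouse Th1 cells took 4 of the 8 libraries of the series, 2 for each hairpin, chosen by their labels. Th1 cells are the T helper cells that make interferon gamma. CD4 T cells of C57BL/6 mice were activated by antibodies against CD3 and CD28 on plates coated with anti-hamster IgG. Cultures received IL-12 (2 ng/ml), which drives the Th1 fate, and anti-IL-4 (5 µg/ml), which blocks the Th2 fate. The scrambled group is labelled sh Scramble transduced and the other sh PCBP1 transduced, so the controls carry a hairpin too. Total RNA depleted of ribosomal RNA was sequenced from both groups. The sources used here give neither the hairpin sequence nor the time after transduction nor the share of cells transduced. Replicates carry numbers in the labels, with no word on separate cultures or animals. The p-values therefore measure only the spread between these libraries, whose source is not given, and may not hold for other cultures or animals.

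PCBP1 is a poly(rC)-binding protein. It binds C-rich stretches of RNA through KH domains and acts in splicing, translation and mRNA stability, and it also carries iron to ferritin, the cell's iron store. In T helper cells, the mRNAs of cytokines such as IL-2, GM-CSF and interferon gamma are made after stimulation of the T cell receptor and are short-lived, because proteins that bind AU-rich elements direct their decay. The question the design addresses is which transcripts differ between the hairpins. PCBP1 protein, iron and cytokine secretion were not measured in the data used here.

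The libraries held 14174293 to 15518303 reads assigned to genes. Values are RPM, the reads of a gene scaled to a library of 1000000 reads after TMM scaling. They are given for scrambled replicates 1 and 2 and then for Pcbp1 hairpin replicates 1 and 2. RPM does not account for gene length, so levels are compared between hairpins and not between genes. Fold changes are on the log2 scale, Pcbp1 hairpin over scrambled, with standard errors (SE), and adjusted p-values come from edgeR's quasi-likelihood test with Benjamini-Hochberg adjustment. Genes "rose" or "fell" where that adjusted p was under 0.05. In bulk RNA, fewer cells of a type and less RNA per cell cannot be told apart.

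Cell type markers were checked against the label. All 10 genes listed for CD4 T cells were tested, of which 4 rose and 4 fell, beside 29.3% and 26.7% of all tested genes. Besides Cd4 the list holds genes of T cells in general, such as Cd3e, Cd5 and Thy1, so it does not part CD4 from CD8 T cells. The summed level of the 10 genes was 2298 and 2527 RPM with the scrambled hairpin and lower, at 1785 and 1901 RPM, with the Pcbp1 hairpin. Cd4 itself rose from 44.2 and 57.7 RPM to 85.2 and 103 RPM. Markers of B cells, neutrophils and erythroid cells summed to at most 1.02 RPM in any library, with S100a8, Camp, Hba-a1 and Hba-a2 at 0 reads in all 4. Of 7 listed dendritic cell markers 2 were tested, and Flt3, Siglech, Clec9a and Cd209a had under 10 reads in every library. The 2 tested ones fell, Xcr1 from 12 and 11.8 RPM to 8.39 and 6.45 RPM and Zbtb46 from 5.11 and 4.65 RPM to 3.39 and 3.26 RPM. Zbtb46 was not called with DESeq2 (adjusted p = 0.235). The sum of the CD8 genes Cd8a and Cd8b1 was 93.6 and 12.4 RPM with the scrambled hairpin and 88 and 11.3 RPM with the Pcbp1 hairpin. Both libraries numbered 1 were thus high and both numbered 2 low, and at the same number the hairpins were alike. The summed NK cell markers went the same way, with 125 and 62.1 RPM and then 92.1 and 56.6 RPM.

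Pcbp1 mRNA stood at 45.5 and 53.9 RPM with the scrambled hairpin and at 14.4 and 15.6 RPM with the hairpin against it. The groups did not overlap, which was so for 79.0% of all tested genes. The change was -1.73 (SE 0.12, edgeR, adjusted p = 3.18e-05), which ranked as the 27th fall by size among all tested genes. Pcbp2, the closest relative of Pcbp1, went from 52.5 and 51.3 RPM to 62.3 and 62.7 RPM (0.27, SE 0.07, edgeR, adjusted p = 0.0152). That rise did not pass without scrambled replicate 2 (adjusted p = 0.0754), without Pcbp1 hairpin replicate 2 (0.0749), without a filter on low counts (0.0659), with DESeq2 (0.0947) or with quantile normalization in limma (0.064).

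Of 11575 tested genes, 6482 (56.0%) differed between the hairpins. 3396 rose (29.3%) and 3086 fell (26.7%), and the median log2 fold change was 0.00. Counts of rises and falls in the gene lists below are to be read beside these shares. The rises reached further: 1089 genes (9.41%) rose at least 2-fold and 502 (4.34%) fell at least 2-fold, and 74 rose but 12 fell more than 4-fold. For 9140 genes (79.0%) the values of the groups did not overlap. The median log2 fold change moved to 0.11 with library totals as the only scaling, where 4011 genes rose and 2491 fell, and rises then made up 81.7% of the 2-fold calls, against 68.4% after TMM scaling.

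**Figure D1:**
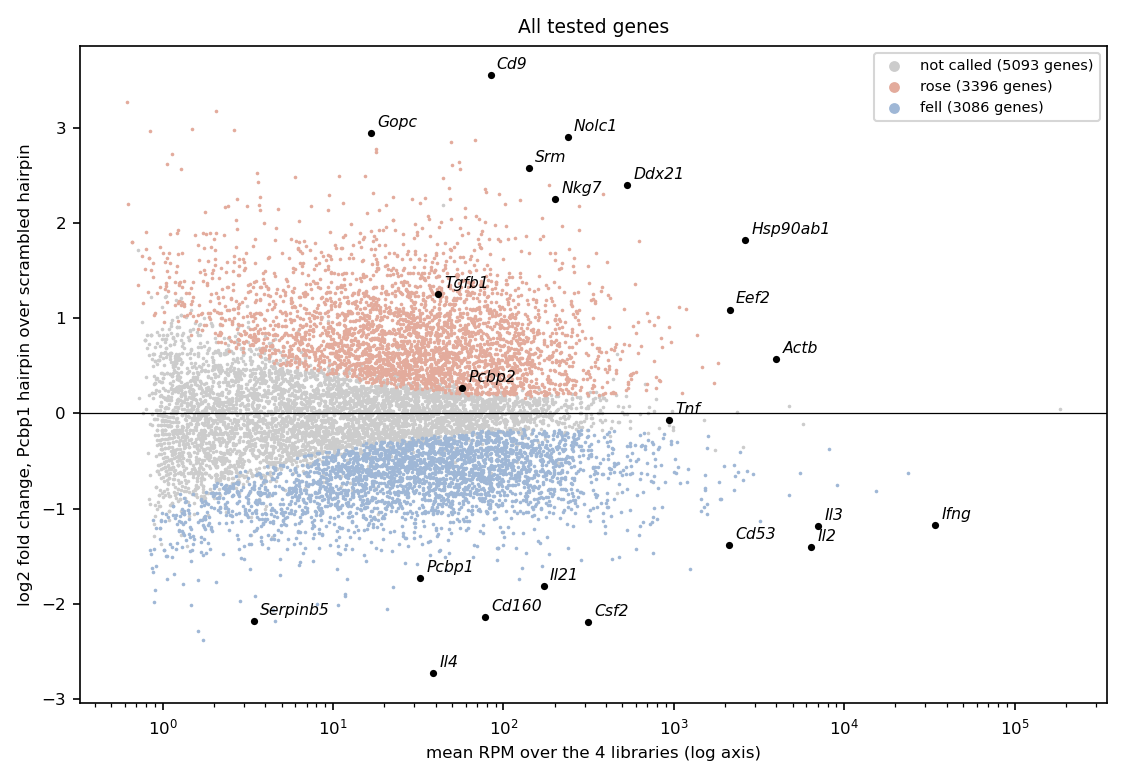
Each point is 1 of 11575 tested genes, with its mean RPM over the 4 libraries on a log axis and its log2 fold change, Pcbp1 hairpin over scrambled, on the vertical axis. Red points rose, blue points fell and grey points were not called. Cd9 (3.55) and Il4 (-2.73) mark the ends, and Ifng, far to the right, lies below 0.

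The rise of Cd9, a tetraspanin of the cell surface, was the largest among the genes that reached 5 RPM in their higher group. Its values were 10.1 and 16.4 RPM and then 122 and 188 RPM (3.55, SE 0.26, edgeR, adjusted p = 3.96e-05). Nolc1, a chaperone of small nucleolar ribonucleoproteins, went from 55.6 and 57 RPM to 402 and 439 RPM (2.90, SE 0.07), and Rrs1, a ribosome assembly factor, from 14.2 and 18.7 RPM to 114 and 127 RPM. Gopc, a Golgi protein, was at 4.38 and 3.34 RPM and then at 27 and 32.2 RPM. Groups that do not overlap were a condition for naming the 15 largest changes, so the gap between the hairpins in these 4 genes is no separate result.

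Other genes among the 15 largest rises were of mixed function. Sdha, the flavoprotein subunit of succinate dehydrogenase, stood at 19.3 and 13 RPM and then at 91.5 and 100 RPM (2.57, SE 0.16). Tufm, the mitochondrial elongation factor, was at 3.06 and 3.49 RPM and then at 17 and 19.9 RPM, and Chchd10, a protein of the mitochondrial intermembrane space, was at 1.02 and 1.09 RPM and then at 6.54 and 5.7 RPM. Taf13, a subunit of the general transcription factor TFIID, rose from 4.31 and 5.02 RPM to 24.6 and 28 RPM, and Snrnp35, a protein of the minor spliceosome, from 1.68 and 1.96 RPM to 9.93 and 10.4 RPM. Clptm1, a membrane protein of the secretory pathway, rose from 14.4 and 13.8 RPM to 83.8 and 88.3 RPM. 4 of the 15 largest rises were annotated as pseudogenes, namely Gm9892 (2.85), Gm9755 (2.78), Rps16-ps2 (2.75) and Gm10052 (2.64). Reads of such copies cannot be parted with certainty from those of their parent genes, so these 4 are uncertain as to their source.

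Among the largest falls, 5 of 15 were cytokine or growth factor genes, described below with their group, and the rest were of mixed function. Timp2, an inhibitor of metalloproteinases, stood at 29.5 and 37.2 RPM and then at 6.91 and 9.23 RPM (-2.05, SE 0.17, edgeR, adjusted p = 6.82e-05). Serpinb5 was at 6.06 and 5.16 RPM and then at 1.17 and 1.29 RPM, and Fam125a, a part of the ESCRT machinery, at 17.2 and 20.1 RPM and then at 5.3 and 4.68 RPM. Cytip, which binds cytohesin and regulates adhesion of lymphocytes, stood at 196 and 186 RPM and then at 59.1 and 55.3 RPM (-1.74, SE 0.07). AA467197 fell from 21.7 and 15.3 RPM to 4.87 and 4.88 RPM, and 1810009J06Rik from 6.57 and 7.71 RPM to 1.91 and 1.49 RPM. After correction for length and GC content the AA467197 value shrank from -1.92 to -1.16. Depdc1a fell from 7.37 and 3.64 RPM to 1.85 and 1.02 RPM (-1.92), and without scrambled replicate 1 its value was -1.32.

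Counted in reads and not per length, the 10 called genes with the largest gain rose by 576 to 2934 RPM. The mitochondrial 16S ribosomal RNA mt-Rnr2, which gained 5898 RPM on a mean of 182757 RPM, was not called. Hsp90ab1, a cytosolic HSP90 chaperone, gained 2934 RPM, from 1094 and 1225 RPM to 3854 and 4334 RPM. Actb gained 1571 RPM and Eef2, the elongation factor that moves the ribosome along, gained 1539 RPM. Nfkb1, Ncl (nucleolin), Lcp1, Ddx21, Ddx3x, Hspa5 and Serbp1 gained between 576 and 856 RPM. Ddx21, a nucleolar RNA helicase, stood at 173 and 167 RPM and then at 816 and 980 RPM, a change of 2.40, and Ddx3x, another RNA helicase, at 303 and 251 RPM and then at 907 and 1043 RPM.

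Cytokine mRNAs were among the largest losses in reads. Ifng fell by 26292 RPM, Il2 fell by 5770 RPM and Il3 fell by 5446 RPM. Noncoding and translation transcripts were next to them. 7SK, the small nuclear RNA that restrains the elongation kinase P-TEFb, went from 19035 and 20262 RPM to 11032 and 11442 RPM, and Eef1a1, the elongation factor that brings tRNA to the ribosome, from 11097 and 11715 RPM to 6435 and 7132 RPM. The mitochondrial 12S ribosomal RNA mt-Rnr1 fell by 10108 RPM and mt-Co1, a subunit of cytochrome c oxidase, fell by 2347 RPM. None of the calls of Ifng, 7SK, Eef1a1, mt-Rnr1 and mt-Co1 was kept with quantile normalization in limma. Their values there were -0.23, 0.00, -0.18, 0.23 and -0.00. That scaling gives genes of equal rank the same value in each library, so for the most abundant genes it compares ranks and not levels. It therefore cannot tell whether the reads of these genes fell. After correction for length and GC content mt-Rnr1 was at 0.33 and mt-Co1 at 0.04, and without scrambled replicate 2 mt-Rnr1 was at -0.57 (edgeR, adjusted p = 0.0606).

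Cytokine genes as a group were lower with the Pcbp1 hairpin. Like all lists here, their list was chosen with earlier results of these data known, so its shares are descriptive. Of 29 listed cytokines 21 were tested. 15 of these fell (71.4%, against 26.7% of all tested genes), 12 of them at least 2-fold, and 3 rose (14.3%, against 29.3%), with a median log2 fold change of -1.17 against 0.00 over all genes. After length and GC correction 12 fell and the median was -0.63.

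**Figure D2:**
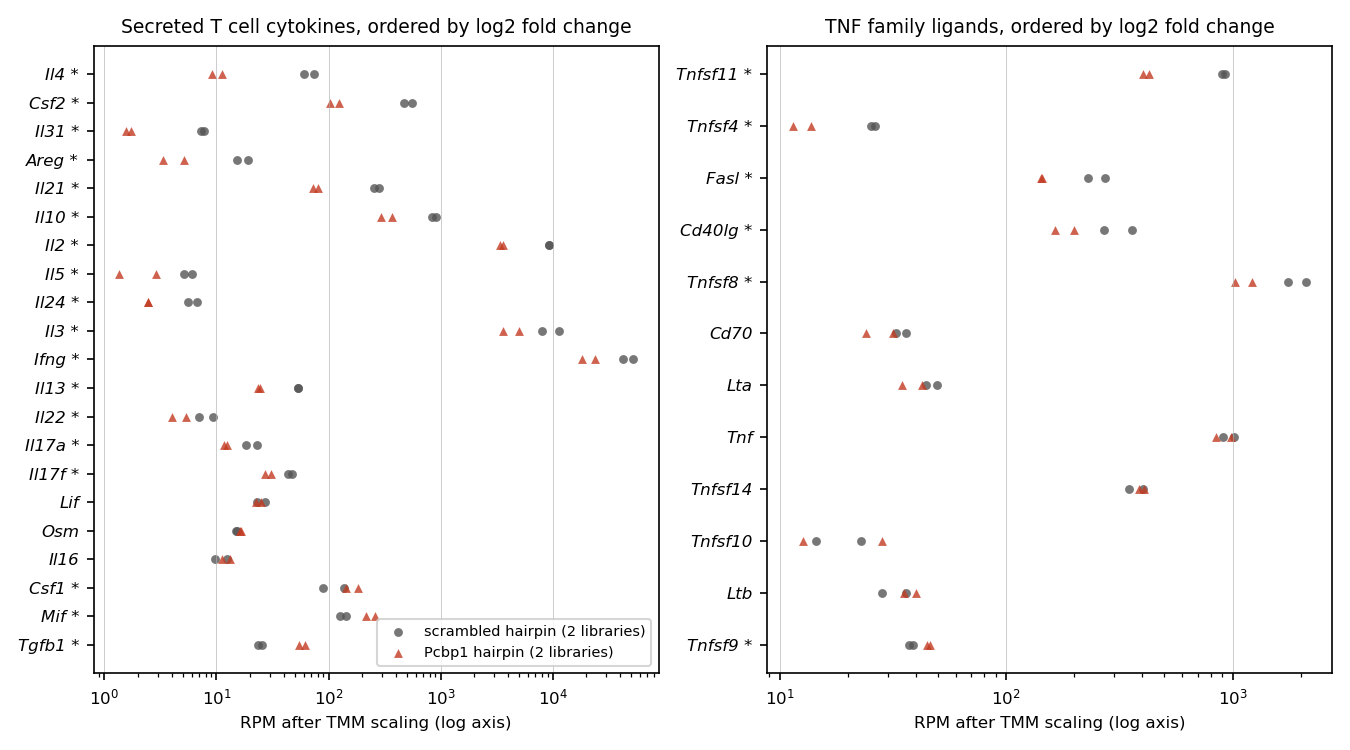
RPM after TMM scaling (log axis) of the tested cytokine genes (left) and TNF family ligands (right) in each library, with grey circles for the 2 scrambled and red triangles for the 2 Pcbp1 hairpin libraries. Genes are ordered by log2 fold change, and an asterisk marks those that rose or fell. The red triangles lie left of the grey circles for 15 cytokines and right of them for Csf1, Mif and Tgfb1, and also for Osm, which was not called (0.13).

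The Th1 cytokine Ifng, which activates macrophages, stood at 52111 and 42648 RPM with the scrambled hairpin and at 23751 and 18424 RPM with the Pcbp1 hairpin (-1.17, SE 0.17). Il2, the growth factor of T cells, stood at 9323 and 9258 RPM and then at 3403 and 3638 RPM (-1.40, SE 0.10), and its value was -0.63 after length and GC correction. Il3, which acts on hematopoietic progenitors and mast cells, stood at 7989 and 11503 RPM and then at 3630 and 4969 RPM (-1.18, SE 0.21, edgeR, adjusted p = 0.00203). Both Pcbp1 hairpin libraries lay below both scrambled libraries for all 3 genes, and the groups were apart for 79.0% of all tested genes. After quantile normalization the Il3 value was -0.56.

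Il10, which restrains inflammation, stood at 845 and 915 RPM and then at 366 and 291 RPM (-1.42, SE 0.11, edgeR, adjusted p = 5.15e-05). Csf2, which encodes GM-CSF, stood at 475 and 556 RPM and then at 104 and 123 RPM (-2.19, SE 0.11). Il21, a cytokine that helps B cells, stood at 253 and 283 RPM and then at 72.3 and 80.1 RPM (-1.81, SE 0.08). The groups did not overlap for any of these 3 cytokines, which was so for 79.0% of all tested genes.

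The Th2 cytokines Il4, Il5, Il13 and Il31 also fell. Il4 stood at 60.4 and 74.3 RPM and then at 11.2 and 9.16 RPM (-2.73, SE 0.15, edgeR, adjusted p = 1.54e-05), and its value was -1.95 after length and GC correction. Il13 went from 53.8 and 53.2 RPM to 23.4 and 24.6 RPM (-1.16). Il5 went from 6.06 and 5.09 RPM to 2.9 and 1.36 RPM, and its log2 fold change of -1.37 (SE 0.33) became -2.03 without Pcbp1 hairpin replicate 1. Il31, an itch-related cytokine of Th2 cells, went from 7.3 and 7.71 RPM to 1.73 and 1.56 RPM, and Il24 from 5.62 and 6.69 RPM to 2.47 and 2.44 RPM (-1.32). Areg, an epidermal growth factor family ligand that T cells can release, stood at 19.2 and 15.3 RPM and then at 5.18 and 3.32 RPM (-2.01, SE 0.22).

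Th17 cytokines changed less. Il17a had a log2 fold change of -0.77 and Il17f of -0.65, and neither passed after length and GC correction (-0.17, edgeR, adjusted p = 0.39, and -0.16, adjusted p = 0.241). Il22 changed by -0.79, a fall that was lost in that fit (-0.13), without scrambled replicate 1 (-0.57) and without Pcbp1 hairpin replicate 2 (-0.62). The 3 rises of the list were of a different kind. Tgfb1, which encodes the precursor of TGF-beta, went from 23.4 and 25.5 RPM to 54.9 and 61.3 RPM (1.25, SE 0.10, edgeR, adjusted p = 5.36e-05). Mif, made by many cell types, went from 127 and 144 RPM to 261 and 217 RPM (0.81). Csf1, which supports macrophages, went from 89.9 and 136 RPM to 144 and 184 RPM (0.54). The Csf1 call was lost with DESeq2, with a filter of 5 RPM, after length and GC correction (0.24), or when scrambled replicate 1 (0.27) or Pcbp1 hairpin replicate 2 (0.33) was left out. Lif (-0.07), Osm (0.13) and Il16 (0.15) were not called.

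Of 12 tested ligands of the TNF family 5 fell and 1 rose, with a median of -0.29. Tnfsf11, or RANKL, which drives the formation of osteoclasts, went from 925 and 899 RPM to 401 and 427 RPM (-1.14, SE 0.07, edgeR, adjusted p = 2.53e-05). Fasl, the death ligand, went from 229 and 274 RPM to 143 and 144 RPM (-0.81), and Cd40lg, the ligand with which T cells activate B cells, from 271 and 360 RPM to 164 and 200 RPM (-0.79). Tnfsf4 (OX40 ligand) fell by 1.03 and Tnfsf8 (CD30 ligand) by 0.78. Tnf (903 and 1011 RPM, then 985 and 842 RPM) overlapped between the groups and was not called, with a 95% interval of -0.30 to 0.17. Cd40lg was not called after length and GC correction (-0.34). The rise of Tnfsf9 (0.26) was lost when any library was left out, at adjusted p from 0.0658 to 0.127.

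Promoter sequences are shown for 3 of the cytokines that fell and, for contrast, for a pair of the largest rises. Each shows the 250 bases before a RefSeq start site (GRCm38.p6), written 5′ to 3′ on the gene's strand. In the cytokine promoters capitals mark TGGAAA on either strand (TTTCCA on the printed one), the core letters that NFAT factors bind. In the other promoters they mark GGGCGG on either strand, the letters of the GC box that SP1 binds.
Csf2, chr11:54249900-54250149, minus strand: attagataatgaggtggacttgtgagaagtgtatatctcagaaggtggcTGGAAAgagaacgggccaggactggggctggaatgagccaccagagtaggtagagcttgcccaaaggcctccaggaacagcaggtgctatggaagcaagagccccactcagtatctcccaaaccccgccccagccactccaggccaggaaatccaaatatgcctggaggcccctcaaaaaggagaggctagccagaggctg
Il2, chr3:37125955-37126204, minus strand: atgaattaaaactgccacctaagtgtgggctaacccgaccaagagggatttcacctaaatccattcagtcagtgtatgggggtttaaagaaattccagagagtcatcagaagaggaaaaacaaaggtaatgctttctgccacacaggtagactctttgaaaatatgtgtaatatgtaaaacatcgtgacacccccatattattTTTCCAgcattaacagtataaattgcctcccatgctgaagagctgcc
Il4, chr11:53618666-53618915, minus strand: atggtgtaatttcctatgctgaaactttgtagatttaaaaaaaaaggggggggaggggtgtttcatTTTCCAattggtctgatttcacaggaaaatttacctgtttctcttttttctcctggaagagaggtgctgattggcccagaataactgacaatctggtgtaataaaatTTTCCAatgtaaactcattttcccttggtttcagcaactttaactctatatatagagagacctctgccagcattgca
Nolc1, chr19:46075597-46075846, plus strand: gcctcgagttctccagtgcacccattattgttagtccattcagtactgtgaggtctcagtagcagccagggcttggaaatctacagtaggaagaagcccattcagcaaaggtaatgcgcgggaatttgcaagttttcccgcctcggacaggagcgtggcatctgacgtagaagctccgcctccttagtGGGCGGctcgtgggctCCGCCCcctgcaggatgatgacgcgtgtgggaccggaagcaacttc
Cd9, chr6:125494761-125495010, minus strand: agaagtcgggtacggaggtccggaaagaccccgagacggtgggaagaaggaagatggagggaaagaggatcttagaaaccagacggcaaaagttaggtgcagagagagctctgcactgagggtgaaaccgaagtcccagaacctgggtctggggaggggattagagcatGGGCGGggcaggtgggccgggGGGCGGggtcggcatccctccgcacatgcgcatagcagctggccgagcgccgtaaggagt

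The Csf2 and Il2 windows each held 1 match to TGGAAA and the Il4 window 2, both of which overlap the letters CCAAT. A second Il4 start in the table had no match in its window. The Csf2 window also held 1 match to GGGCGG. Nolc1 and Cd9 each had 2 matches to GGGCGG, and the Nolc1 window also had 1 match to TGGAAA. These matches are letters in the printed windows and no measurement of binding.

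Over all tested genes with a window (250 bases before a start and 50 after it), TGGAAA was in 20.2% of 386 windows of genes that fell at least 2-fold. It was in 13.7% of 1056 windows of genes that rose at least 2-fold and in 16.4% of 10795 windows of all tested genes. The windows came from 325, 834 and 8496 genes, since a gene can have several starts. GGGCGG went the other way, with 49% of the windows of falling genes, 68.7% of those of rising genes and 63.5% of all. TATAAA, the TATA box, was in 15.8% of the windows of falling genes, 7.48% of those of rising genes and 7.16% of all. The shares for CCAAT, bound by NF-Y, were 45.3%, 35.8% and 37.9%, and for TGACGTCA, bound by CREB and ATF factors, 5.44%, 2.27% and 3.33%, in the same order. TGANTCA, the AP-1 site, was in 6.99%, 4.26% and 4.85%. CACGTG, the E-box of MYC and its partners, was in 8.81%, 10.9% and 10.4%, GGAAGTG, an ETS site, in 15.3%, 14.2% and 15.7%, and CCCTCCC in 20.5%, 30% and 27%. Both strands were searched. The windows differed in base composition, with a median GC content of 55.7% for falling genes, 63% for rising genes and 60.7% for all, and its part in these shares was not tested.

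Several of the cytokine genes lie next to each other, so their neighbours were examined in the chromosomal order of RefSeq. On chromosome 11, Il4, Il13, Il5, Csf2 and Il3 all fell. Between Il13 and Il5 lies Rad50, a DNA repair gene, which rose from 20.2 and 18 RPM to 38.2 and 35.3 RPM (0.95, SE 0.11, edgeR, adjusted p = 2.60e-04). Kif3a, the listed neighbour of Il4 on the other side, was not called (-0.05, 95% interval -0.61 to 0.50), and neither were Irf1 (-0.29), P4ha2 (0.17) and Hspa4 (-0.01). Uqcrq, a subunit of respiratory complex III near Kif3a, fell from 135 and 136 RPM to 57.6 and 44.2 RPM (-1.41), and Slc22a5, a carnitine carrier, fell by 0.80. Acsl6, next to Il3, changed by 0.57, a rise lost after quantile normalization, after length and GC correction, or when scrambled replicate 1 (0.40) or Pcbp1 hairpin replicate 2 (0.27) was left out.

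**Figure D3:**
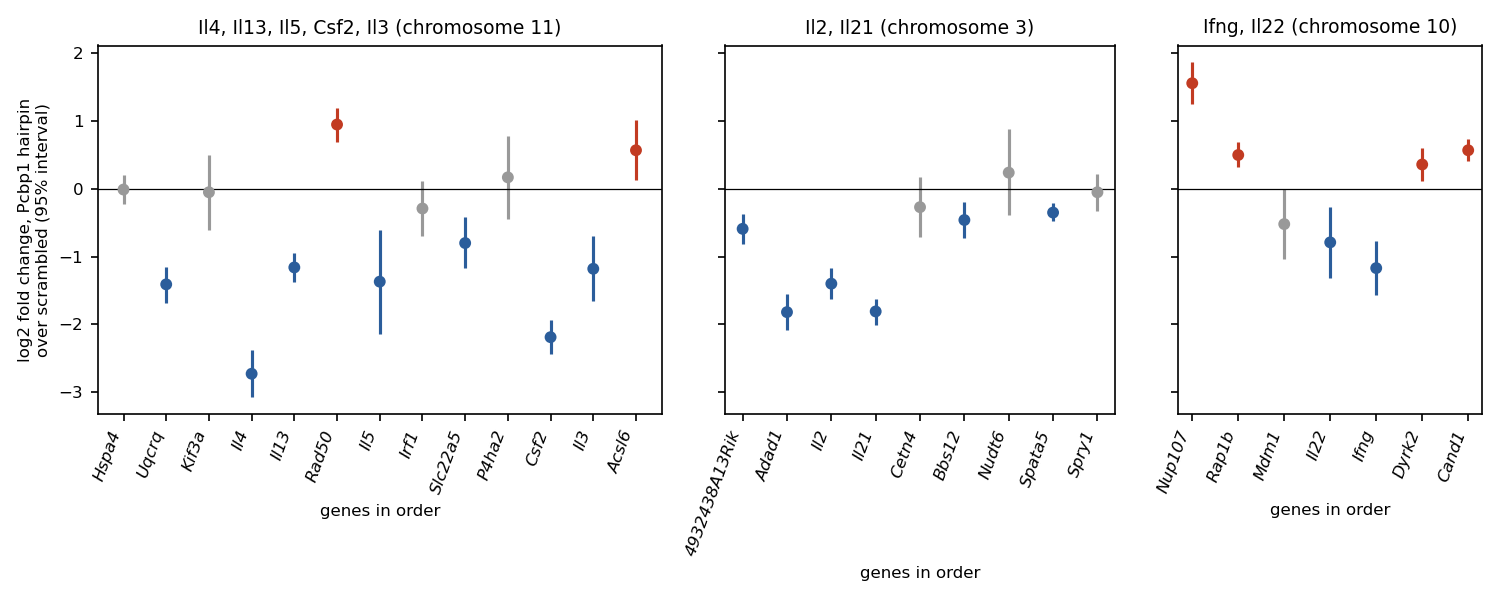
Log2 fold changes, Pcbp1 hairpin over scrambled, of genes in chromosomal order at 3 cytokine loci (distances not to scale). Points are estimates, lines 95% intervals, red marks genes that rose, blue those that fell and grey those not called. At the left locus Rad50 (0.95) lies above 0 between Il13 (-1.16) and Il5 (-1.37), and at the middle locus Adad1, Il2 and Il21 all lie below -1.

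At the Il2 and Il21 locus on chromosome 3, 6 of 9 tested genes fell and 3 were not called. Adad1, the neighbour of Il2 and a gene known for its role in the testis, stood at 34.8 and 34.9 RPM and then at 10.5 and 9.23 RPM (-1.82, SE 0.11, edgeR, adjusted p = 2.44e-05), within 0.01 of the value of Il21. 4932438A13Rik, beyond Adad1, fell by 0.59 and Spata5 by 0.35. Bbs12 fell by 0.46, a call lost with DESeq2, after length and GC correction (-0.10) and without Pcbp1 hairpin replicate 1 (-0.40). Spry1, an inhibitor of growth factor signalling, was not called (-0.05), nor were Cetn4 (-0.27) and Nudt6 (0.24). Whether the counting used the strand is not given in the sources used here, so reads of overlapping genes cannot be told apart.

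At the Ifng locus on chromosome 10 4 of 7 tested genes rose and 2, Il22 and Ifng, fell. Nup107, a nuclear pore protein, went from 26.3 and 19.7 RPM to 68.5 and 67.6 RPM (1.56, SE 0.13), and Rap1b and Cand1 rose by 0.50 and 0.57. Dyrk2, next to Ifng, changed by 0.36, a rise that did not hold without scrambled replicate 1 (0.34) or 2 (0.38) or Pcbp1 hairpin replicate 2 (0.28), with DESeq2, with quantile normalization, without a filter and after length and GC correction (0.08). Mdm1 was not called (-0.52).

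Of 11 tested chemokines 7 fell and 1 rose, with a median of -0.86. Ccl1, which attracts CCR8-bearing cells, stood at 825 and 947 RPM and then at 398 and 332 RPM (-1.28, SE 0.11, edgeR, adjusted p = 6.86e-05). Ccl9 stood at 174 in both scrambled libraries and then at 98.2 and 92.2 RPM. Xcl1, the ligand of XCR1 on dendritic cells, went from 7118 and 5062 RPM to 4048 and 2670 RPM (-0.86), and did not pass after quantile normalization (-0.43) or after length and GC correction (-0.29). Ccl5, which attracts T cells and monocytes, was the gene that rose, from 19.6 and 18.3 RPM to 66.2 and 47.8 RPM (1.59, SE 0.16). Ccl4 (5641 and 6256 RPM, then 6038 and 4980 RPM) was not called, and with quantile normalization it was higher (0.52, limma, adjusted p = 0.00751). Ccl3 changed by -0.37 (edgeR, adjusted p = 0.0326). That call did not hold without scrambled replicate 1 (-0.44, edgeR, adjusted p = 0.0625), scrambled replicate 2 (-0.30, adjusted p = 0.223) or Pcbp1 hairpin replicate 2 (-0.27, adjusted p = 0.098). After length and GC correction, 3 chemokines fell.

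Among cytokine receptor genes 10 of 27 rose and 2 fell, with a median of 0.13. Il1r2, the decoy receptor for IL-1, stood at 123 and 130 RPM and then at 387 and 398 RPM (1.63, SE 0.07, edgeR, adjusted p = 8.04e-06). Both signalling chains of the IL-2 receptor rose, Il2rb from 85.7 and 94.2 RPM to 160 and 152 RPM and the common gamma chain Il2rg from 58.9 and 65.1 RPM to 103 RPM in both. Il2ra, the alpha chain, was not called (494 and 475 RPM, then 459 and 452 RPM, 95% interval -0.24 to 0.06). Il18rap, a chain of the IL-18 receptor, fell from 209 and 177 RPM to 70.9 and 54.5 RPM (-1.62, SE 0.13), and Il7r, the receptor for a survival cytokine, from 116 and 125 RPM to 71.9 and 75.9 RPM. The number of receptors that fell ranged with the settings, and was 5 after quantile normalization and with a filter of 5 RPM, and 4 after length and GC correction, where the median was -0.03.

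Among 30 tested genes of the T cell receptor complex and its proximal signalling, 18 rose and 8 fell, with a median of 0.33. The CD3 chains parted. Cd3e stood at 40.4 and 44.8 RPM and then at 75.7 and 80.4 RPM (0.87, SE 0.08, edgeR, adjusted p = 1.14e-04). Cd3d stood at 358 and 354 RPM and then at 162 and 152 RPM (-1.18, SE 0.06), and Cd3g at 207 and 214 RPM and then at 116 and 111 RPM (-0.89, SE 0.06). These chains assemble into the same complex. Their groups did not overlap, which was so for 79.0% of all tested genes. Fyn, a kinase of the SRC family, rose from 190 and 209 RPM to 435 and 478 RPM, and the adaptor Grap2 rose by 0.83. Themis, a regulator of T cell receptor signalling, fell from 506 and 480 RPM to 262 and 252 RPM. Lck, the kinase that starts the signal, was not called (0.16, 95% interval 0.01 to 0.30), and neither was the phosphatase Ptpn22 (0.08). Of the 35 tested V segments by RefSeq type 18 fell (51.4%, against 26.7% of all tested genes and 41.4% in the bin of the shortest transcripts, described below).

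Costimulatory receptors mostly fell: 11 of 19 tested members fell and 3 rose, with a median of -0.30. Tnfrsf18, or GITR, stood at 153 and 135 RPM and then at 58.3 and 52.5 RPM (-1.38, SE 0.09, edgeR, adjusted p = 2.58e-05). Cd28, the receptor stimulated by antibody in these cultures, stood at 409 and 441 RPM and then at 244 and 246 RPM (-0.80, SE 0.07), and Icos at 543 and 538 RPM and then at 377 and 374 RPM. Ly9, a SLAM family receptor, rose from 59.8 and 62.7 RPM to 92.3 and 111 RPM, and Tnfrsf1b, a TNF receptor, from 70.1 and 95.9 RPM to 139 and 138 RPM. Tnfrsf4, or OX40, was not called (734 and 776 RPM, then 758 and 785 RPM). The rise of Tnfrsf8 (0.53) did not hold when scrambled replicate 2 (0.41) or Pcbp1 hairpin replicate 1 (0.34) was left out, with DESeq2, with quantile normalization and after length and GC correction.

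Of 14 tested coinhibitory receptors 5 fell and 2 rose, with a median of -0.24. Cd160, which binds HVEM, stood at 147 and 109 RPM and then at 35.5 and 22.5 RPM (-2.14, SE 0.22, edgeR, adjusted p = 1.43e-04). Ctla4, which competes with CD28 for its ligands, stood at 212 and 157 RPM and then at 84.2 and 71.3 RPM (-1.25, SE 0.14), and Btla at 922 and 768 RPM and then at 481 and 473 RPM. Lag3, which binds MHC class II, rose from 27.1 and 24.5 RPM to 56.6 and 39.6 RPM. Havcr2, or TIM-3, at 0.20, was the other rise and did not hold without scrambled replicate 1 (0.19), scrambled replicate 2 (0.22) or Pcbp1 hairpin replicate 1 (0.13), with DESeq2 and with either other filter. Without scrambled replicate 1 only 3 members fell.

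Of 17 homing receptors 5 rose (29.4%) and 6 fell (35.3%), with a median of 0.24. Cxcr6, which marks effector cells of tissues, stood at 676 and 619 RPM and then at 251 and 198 RPM (-1.53, SE 0.12). Ccr8, the receptor of CCL1, fell from 13 and 12.7 RPM to 3.33 and 3.05 RPM. Cxcr3, the receptor typical of Th1 cells, overlapped between groups (42 and 65 RPM, then 56.9 and 84.5 RPM) and was not called. Without Pcbp1 hairpin replicate 1 the median was -0.03.

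Integrins, which bind matrix and other cells, rose in 7 of 14 cases and were not called in the other 7, with a median of 0.60. Itgb1 stood at 93.2 and 82.5 RPM and then at 231 and 245 RPM (1.44, SE 0.08, edgeR, adjusted p = 1.49e-05), and its partner Itga4 at 10.2 and 11.6 RPM and then at 20 and 22.5 RPM. Itgb2, the beta chain of LFA-1, rose from 73.6 and 81.7 RPM to 152 and 159 RPM. Itgav (-0.12) and Itga3 (0.32) were not called. 1 integrin fell without a filter on low counts and 2 fell after length and GC correction. Among 15 tested tetraspanins 3 rose and 2 fell. Beside Cd9, Tspan5 rose from 21.2 and 20.7 RPM to 63.6 and 70.6 RPM (1.68, SE 0.09), whereas Cd53, a tetraspanin of leukocytes, fell from 2907 and 3166 RPM to 1088 and 1242 RPM (-1.38, SE 0.10). Cd53 was at -0.76 after length and GC correction. Cd37 (-0.42) was the other fall, and without scrambled replicate 1 (-0.45), scrambled replicate 2 (-0.40) or Pcbp1 hairpin replicate 2 (-0.35) it did not pass, so that Cd53 alone fell.

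Transcription factors that set T helper lineages rose more often than they fell, in 17 against 5 of 27 cases, with a median of 0.50. Bhlhe40, which supports production of cytokines such as GM-CSF in T helper cells, stood at 44.9 and 39 RPM and then at 168 and 161 RPM (1.97, SE 0.08, edgeR, adjusted p = 8.70e-06). Ets1 rose from 172 and 223 RPM to 443 and 497 RPM and Zeb2, which acts in terminal effector cells, from 199 and 203 RPM to 339 and 331 RPM. Batf, an AP-1 factor needed for Th17 and follicular helper cells, fell from 78 and 67.8 RPM to 35.3 and 35.1 RPM (-1.05, SE 0.09). Ikzf2, or Helios, fell by 0.68 and Hif1a, the oxygen-sensing factor, by 0.48. Without scrambled replicate 1 or without Pcbp1 hairpin replicate 2, 3 members fell.

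The factors activated by T cell receptor and cytokine signals moved in both directions. Of 17 tested genes of the NFAT and calcineurin list 8 rose and 5 fell (median 0.19). Nfatc1 stood at 42.4 and 43.3 RPM and then at 93 and 111 RPM (1.25, SE 0.10), Nfatc3 at 35.2 and 36.2 RPM and then at 77.6 and 84.5 RPM, and Ppp3r1, the regulatory subunit of calcineurin, at 29.7 and 30.5 RPM and then at 61.4 and 72.1 RPM. Rcan1, an inhibitor of calcineurin and a known NFAT target, fell by 0.64. Leaving out any 1 library left 3 members that fell, and Nfatc2ip (-0.65) was among the calls lost, at an edgeR adjusted p = 0.117 without scrambled replicate 1 and 0.115 without Pcbp1 hairpin replicate 2. Without Pcbp1 hairpin replicate 2, 5 rose.

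Of 20 NF-kB subunits and inhibitors 8 rose and 3 fell. Nfkb1 stood at 691 and 800 RPM and then at 1515 and 1688 RPM (1.10, SE 0.10, edgeR, adjusted p = 9.23e-05), and Rela at 61.3 and 62 RPM and then at 134 RPM in both (1.12, SE 0.06). Together they encode the classical heterodimer. Its inhibitors did not rise alike: Nfkbie fell from 63.3 and 63.7 RPM to 46.6 and 40 RPM, Nfkbia was not called (-0.13), and Tnip1 rose by 1.23. Ikbkg (-0.32) fell but was not called without scrambled replicate 2 (-0.26), and Chuk (-0.21) did not hold without scrambled replicate 1 (-0.22), scrambled replicate 2 (-0.20) or Pcbp1 hairpin replicate 1 (-0.19). Chuk was at 0.08 and 6 members fell after length and GC correction.

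The AP-1 and small MAF list had 4 rises and 4 falls among 16 members, shares close to the 29.3% and 26.7% of all tested genes. It had 2 rises after length and GC correction, a median of 0.01 and values from -1.05 to 1.15. Mafg rose from 33.3 and 31.5 RPM to 71.6 and 72 RPM, and Batf, Atf3 (-0.74) and Maff (-0.52) fell. Jun and Junb were not called, and Junb spread widely in the Pcbp1 hairpin group (171 and 183 RPM, then 181 and 106 RPM). In the EGR, NR4A and IRF list 5 of 16 rose and 3 fell, and after length and GC correction 4 rose and 6 fell. Egr2, an early response factor, stood at 163 and 193 RPM and then at 372 and 384 RPM (1.09, SE 0.09), and Irf4, whose level follows the strength of the T cell receptor signal, at 673 and 773 RPM and then at 1166 and 1264 RPM (0.75, SE 0.09). Irf2 rose by 1.74 and Nab1, a corepressor of EGR factors, fell by 0.51. The falls of Irf7 and Nab2 each did not hold without scrambled replicate 2 (-1.01 and -0.18) and without Pcbp1 hairpin replicate 2 (-0.73 and -0.26), where 1 member fell.

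Among 21 JAK, STAT and SOCS genes 7 rose and 5 fell, beside 29.3% and 26.7% of all tested genes. After length and GC correction 4 rose and 6 fell. Stat3 stood at 30 and 28.3 RPM and then at 79.8 and 63.7 RPM (1.30, SE 0.12), and Stat5b rose by 0.67. Stat4, which carries the IL-12 signal to Th1 genes, fell from 244 and 206 RPM to 169 and 151 RPM (-0.49, SE 0.09, edgeR, adjusted p = 0.0034). The IL-2 induced feedback inhibitors Cish and Socs2 fell by 0.70 and 1.38, while Socs7 rose by 1.33. Stat5a was not called (0.06) and was lower after length and GC correction (-0.27, edgeR, adjusted p = 0.00947). Of 13 MAP kinase phosphatases 5 rose and 2 fell, with Dusp4 from 172 and 197 RPM to 375 and 351 RPM and Dusp5 from 49.1 and 41.3 RPM to 89 and 91.7 RPM. The falls were Dusp11 (-0.23) and Dusp1 (-0.50). Without scrambled replicate 2 neither passed (-0.20 and -0.32), without Pcbp1 hairpin replicate 2 only Dusp11 did, and without scrambled replicate 1 or without a filter on low counts the falls numbered 4.

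Factors linked to quiescence rose in 11 of 23 cases and fell in 3 (median 0.49). Foxp1, which keeps T cells at rest, stood at 128 and 145 RPM and then at 369 and 399 RPM (1.49, SE 0.08, edgeR, adjusted p = 1.64e-05). Btg1 stood at 201 and 232 RPM and then at 512 and 544 RPM (1.29, SE 0.08), and Tob2 rose by 1.26. BTG and TOB proteins restrain proliferation and promote mRNA deadenylation. Klf6 fell by 0.45 and Btg2 by 0.64, and Satb1 (-0.26) was not called without scrambled replicate 1 (-0.15) or Pcbp1 hairpin replicate 1 (-0.19). Slfn2 (-0.07) was not called, and was higher after quantile normalization (0.29).

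Of 13 members of the MYC, MAX and MXD network 7 rose and 6 were not called (median 0.22). Myc stood at 377 and 467 RPM and then at 747 and 890 RPM (0.96, SE 0.12, edgeR, adjusted p = 4.67e-04), and its antagonist Mnt rose by 1.20. 1 member fell with median ratio scaling and 2 after length and GC correction. Amino acid transporters rose in 12 of 18 cases and were not called in 6 (median 0.36), among them Slc38a1, a glutamine carrier, from 109 and 118 RPM to 363 and 386 RPM (1.73, SE 0.07). Slc7a5, the large neutral amino acid carrier, rose from 95.5 and 97.4 RPM to 217 and 201 RPM. Corrected for length and GC, 5 rose and 1 fell, and Slc38a10 was then lower (0.14 to -0.25). 1 transporter fell without scrambled replicate 1, scrambled replicate 2 or Pcbp1 hairpin replicate 1.

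Polyamine genes parted. Srm, spermidine synthase, stood at 40.9 and 39.8 RPM and then at 232 and 251 RPM (2.58, SE 0.07, edgeR, adjusted p = 4.67e-06). The enzymes that supply it rose as well, Odc1 from 330 RPM in both to 502 and 554 RPM and Amd1 from 33 and 31 RPM to 64.3 and 76.5 RPM. Sms, which turns spermidine into spermine, fell by 0.46, Sat1, which degrades polyamines, by 0.74, and Oaz1, the antizyme that removes ODC, by 0.56. Of 17 tested members 4 rose and 8 fell. The falls numbered 3 when scrambled replicate 2 was left out, 4 for scrambled replicate 1 and 5 for Pcbp1 hairpin replicate 1. Library totals as the scaling left 3 falls.

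Of 37 nucleotide synthesis genes 13 rose (35.1%, against 29.3% of all tested genes) and 12 fell (32.4%, against 26.7%). Mthfd1, of the folate cycle, stood at 55.7 and 61 RPM and then at 208 and 215 RPM (1.86, SE 0.07), and Impdh1, the enzyme of guanine nucleotide synthesis, at 13.7 RPM in both and then at 50.1 and 55.8 RPM. The serine synthesis enzyme Psph fell by 1.27. With DESeq2, 8 rose. Of 39 tRNA synthetase genes 15 rose and 8 fell. Kars stood at 92.8 and 85.6 RPM and then at 339 and 362 RPM (1.97, SE 0.07) and Farsa at 38.4 and 34 RPM and then at 139 and 147 RPM. Dars fell from 344 and 376 RPM to 172 and 195 RPM. Lars2, which charges the mitochondrial leucine tRNA, varied widely within both groups (7076 and 2155 RPM, then 1678 and 8082 RPM). It was not called at 0.08 (SE 0.72), and without Pcbp1 hairpin replicate 2 it was lower (-1.48, edgeR, adjusted p = 0.0441), while without scrambled replicate 1 its value was 1.18.

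The translation initiation and elongation factors divided within single complexes. Of 49 tested members 19 rose and 17 fell. In the eIF3 complex Eif3c stood at 216 and 218 RPM and then at 548 and 545 RPM (1.33, SE 0.06) and Eif3g rose by 0.99. Eif3m stood at 518 RPM in both and then at 244 and 258 RPM (-1.04, SE 0.06) and Eif3e fell by 0.90, so subunits of 1 complex went in opposite directions. Eif3m was at -0.41 after length and GC correction. Eif2s2 rose from 53.6 and 48 RPM to 189 and 176 RPM. RNA polymerase genes divided as well, with 11 of 35 that rose and 13 that fell, beside 29.3% and 26.7% of all tested genes. Ubtf, the factor that opens ribosomal DNA for RNA polymerase I, rose from 104 and 115 RPM to 297 and 331 RPM, and Polr1b and Polr3a rose by 1.19 and 1.34. Taf1d (-0.79), Polr2h (-0.69) and Twistnb (-0.53) fell.

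Mitochondrial ribosomal protein genes fell in 49 of 75 cases (65.3%) and rose in 11, with a median of -0.48. Mrpl12 stood at 51.8 and 54.6 RPM and then at 20.3 and 21.7 RPM (-1.34, SE 0.10, edgeR, adjusted p = 3.51e-05), Mrpl32 at 96.5 and 99.7 RPM and then at 52.5 and 52 RPM, and Mrpl35 at 104 and 98.5 RPM and then at 53.9 and 53.3 RPM. Mrpl50 was the largest rise of the list, from 26.8 and 25.5 RPM to 55.9 and 60.2 RPM. Most falls were small, and 4 reached 2-fold.

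Splicing genes mostly rose: 33 of 59 SR protein and spliceosome genes rose (55.9%), 15 of them at least 2-fold, and 14 fell, each by less than 2-fold (median 0.48). Tra2a stood at 49.4 and 49.2 RPM and then at 134 and 135 RPM (1.45, SE 0.06, edgeR, adjusted p = 9.46e-06). Ddx23, a helicase of the U5 snRNP, stood at 39.3 and 40.1 RPM and then at 113 and 115 RPM, and Snrnp70, of the U1 snRNP, at 50.6 and 51.3 RPM and then at 128 and 127 RPM. The Sm core proteins moved in both directions. Snrpe went from 175 RPM in both to 93.2 and 96.8 RPM (-0.88), and Snrpb, Snrpd2 and Snrpg also fell (-0.48 to -0.59), while Snrpd1 (0.54) and Snrpd3 (0.35) rose and Snrpf was not called (0.69). Snrpb2, a protein of the U2 snRNP, fell from 206 and 208 RPM to 115 and 116 RPM (-0.84). Corrected for length and GC, Snrpe was at -0.11 (edgeR, adjusted p = 0.189) and Snrpb2 at -0.24, and 8 members fell. Clk1, a kinase of SR proteins, fell by 0.90.

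Regulators of cytokine mRNA stability rose in 15 of 23 cases (65.2%) and fell in 5, with a median of 0.61, and the list has members that destabilize and members that stabilize. Zfp36, or tristetraprolin, and its relatives Zfp36l1 and Zfp36l2 bind AU-rich elements and recruit deadenylases. Zfp36l2 stood at 12.5 and 12.4 RPM and then at 35.6 and 40.7 RPM (1.62, SE 0.11, edgeR, adjusted p = 3.39e-05). Zfp36 rose by 1.24 and Zfp36l1 by 0.96. Khsrp, which also promotes decay, stood at 42.3 and 46.6 RPM and then at 93.8 and 98.7 RPM. Zc3h12a, or Regnase-1, and Rc3h1, or Roquin-1, which act on stem-loops, rose by 0.71 and 0.61, and Rc3h2 was not called (0.02). On the stabilizing side, Elavl1, or HuR, went from 73 and 73.7 RPM to 139 and 163 RPM (1.04) and Ptbp1 from 106 and 117 RPM to 326 and 340 RPM (1.58). Tia1 (-0.50), Tial1 (-0.31) and Pum2 (-0.30) fell, and Tial1 was not called after length and GC correction (-0.14, edgeR, adjusted p = 0.0974). Zfp36, Zfp36l1, Zc3h12a, Rc3h1 and Elavl1 were singled out after their values were seen. Without scrambled replicate 1, scrambled replicate 2 or Pcbp1 hairpin replicate 1, 3 members fell.

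Of 53 genes of mRNA decay and of the poly(A) tail 21 rose and 12 fell (median 0.15). Dcp1a, of the decapping complex, stood at 43.1 and 44.1 RPM and then at 93.5 and 94 RPM (1.10, SE 0.07), and Upf1, the helicase of nonsense-mediated decay, at 53.5 and 51.6 RPM and then at 95.2 and 97.1 RPM. The LSM ring proteins moved in both directions, with Lsm1 and Lsm3 that fell by 0.92 and 0.85, as did Lsm4 and Lsm5, and Lsm6 that rose by 1.15. Lsm2 (0.22) and Lsm7 (-0.14) were not called. Among 15 tested snoRNA host genes and long noncoding RNAs 11 fell and 1 rose, with a median of -0.57. Snhg1 stood at 332 and 342 RPM and then at 178 and 180 RPM (-0.91, SE 0.06), and Mir17hg, the host of the miR-17 cluster, at 105 and 94.5 RPM and then at 67 and 66.9 RPM. Malat1, a nuclear RNA, was the rise, from 635 and 605 RPM to 1144 and 994 RPM. By RefSeq type, 16 of 261 long noncoding RNAs rose (6.13%, against 29.3% of all tested genes) and 67 fell (25.7%, against 26.7%). Their level was low, with a median of 2.48 RPM with the scrambled hairpin, and low genes were called less often. In the lowest of 5 equal bins by mean RPM (median 1.86 RPM with the scrambled hairpin) 12.1% rose and 11.8% fell. Of 40 snoRNAs 17 fell (42.5%), and in the bin of the shortest transcripts, described below, 41.4% of genes fell. The largest noncoding falls with at least 5 RPM included AW112010 (48.6 and 36.4 RPM, then 19.1 and 15.3 RPM) and 2310010J17Rik (-1.42). After length and GC correction these 2 values were -0.51 and -0.65.

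Of 33 tested chaperone genes 16 rose and 11 fell (median 0.25). Dnajc7, a cochaperone of HSP70 and HSP90, stood at 14.5 and 12.7 RPM and then at 76.7 and 74.2 RPM (2.47, SE 0.10, edgeR, adjusted p = 8.58e-06). The chaperonin subunits of the TRiC ring did not move together: Cct7 stood at 296 and 280 RPM and then at 538 and 543 RPM (0.91), Cct5 at 1264 and 1269 RPM and then at 865 and 853 RPM (-0.56), and Cct8 was not called (0.00, 95% interval -0.16 to 0.16). Hspe1 fell by 0.59, and was at -0.11 after length and GC correction, where 6 members fell. ATF4 targets fell in 8 of 20 cases and rose in 3, with Atf4 itself from 565 and 496 RPM to 406 and 317 RPM and Asns, asparagine synthetase, from 213 and 183 RPM to 153 and 128 RPM. Without Pcbp1 hairpin replicate 2, 5 rose. Of 29 genes of the ER and unfolded protein response 11 rose and 11 fell, with P4hb from 160 and 148 RPM to 378 and 360 RPM and Sec61b from 86.8 and 80.4 RPM to 41.9 and 34.4 RPM.

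Proteasome genes fell in 26 of 44 cases (59.1%) and rose in 9, with a median of -0.46. Psmc6, an ATPase of the base, stood at 446 and 442 RPM and then at 203 and 204 RPM (-1.13, SE 0.06, edgeR, adjusted p = 1.55e-05), and the core subunits Psma2 and Psma4 fell by 0.98 and 1.01. Psmc5, another ATPase of the same ring, stood at 42 and 43.5 RPM and then at 109 and 123 RPM (1.44, SE 0.08). Psmd12 rose from 45.5 and 39.5 RPM to 145 and 154 RPM and Psmd2 from 109 and 111 RPM to 274 and 299 RPM. Psmc6 was at -0.47 after length and GC correction. Lysosomal genes gave 14 rises and 18 falls among 40. Gaa, the enzyme that degrades glycogen, rose by 1.52, and Ctss, or cathepsin S, fell from 57.8 and 62.3 RPM to 24.8 and 27.4 RPM. In autophagy 13 of 36 rose and 13 fell, and 7 rose and 12 fell after length and GC correction. Examples are the receptor Tax1bp1 from 108 and 101 RPM to 267 and 255 RPM and Rb1cc1, of the initiating kinase complex, from 78.3 and 72.2 RPM to 46 and 42.3 RPM.

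Glycolysis and pentose phosphate genes rose in 15 of 30 cases (50%) and fell in 3, with a median of 0.46. Gpi1 stood at 24.4 and 28.4 RPM and then at 107 and 115 RPM (2.07, SE 0.09, edgeR, adjusted p = 9.93e-06). Hk2, which traps glucose in the cell, stood at 51.2 and 49.7 RPM and then at 134 and 129 RPM, and Slc16a1, a lactate carrier, at 209 and 217 RPM and then at 453 and 500 RPM. Slc2a1, the glucose carrier, was not called (0.13). Ldha (-0.21) was lost whichever library was left out, at adjusted p from 0.067 to 0.227, and Taldo1 (-0.31) without scrambled replicate 2 (-0.25), where 1 member fell. No member fell after length and GC correction. Sterol and fatty acid synthesis genes rose in 16 of 34 cases and fell in 2. Fasn, fatty acid synthase, stood at 127 and 134 RPM and then at 364 and 397 RPM (1.55, SE 0.07). Srebf2, the factor that controls cholesterol synthesis, rose by 0.98, whereas Insig1 (-0.25) and Cyp51 (-0.19) were not called. Fasn was at 0.96 after length and GC correction. Fdps (-0.54) did not hold without scrambled replicate 2 (-0.37) or Pcbp1 hairpin replicate 1 (-0.28), where 1 member fell, and without Pcbp1 hairpin replicate 2, 4 fell.

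In the list of the tricarboxylic acid cycle and complex II, 18 of 35 fell and 9 rose, 7 of these at least 2-fold (median -0.31). Beside Sdha, Got2 stood at 12.4 and 11.6 RPM and then at 56.1 and 59.1 RPM (2.26, SE 0.10, edgeR, adjusted p = 9.93e-06), Mdh2 at 59.7 and 57.5 RPM and then at 146 and 155 RPM, and Ogdh at 27.7 and 27.1 RPM and then at 75.2 and 82.4 RPM. Got2 and Mdh2 belong to the malate-aspartate shuttle. The falls were smaller, with Suclg1 at -0.76, Sdhaf2, an assembly factor of complex II, at -0.72 and Pdhb at -0.70.

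Because PCBP1 handles iron, genes of iron uptake, storage, export and sensing were listed. Of 16 tested members 6 rose and 4 fell, Pcbp1 among them, with a median of -0.07. Fth1, the ferritin heavy chain, stood at 87 and 87.7 RPM and then at 52 and 58.3 RPM (-0.66, SE 0.08, edgeR, adjusted p = 3.01e-04), and Ftl1, the light chain, was not called (-0.22, 95% interval -0.47 to 0.02). The iron regulatory proteins parted, as Aco1 rose from 20.4 and 25.5 RPM to 55.1 and 53.9 RPM (1.25, SE 0.12) and Ireb2 fell from 70.8 and 67.2 RPM to 38.9 and 44 RPM (-0.74, SE 0.09). Slc39a14, an importer of iron outside transferrin, rose by 0.65 and Slc48a1, a heme carrier, by 0.75. Fbxl5, which degrades IREB2 protein, was not called (-0.05). Without scrambled replicate 2 and with DESeq2 or quantile normalization 3 rose.

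Of 31 antioxidant genes 9 rose (29%) and 8 fell (25.8%), shares close to the 29.3% and 26.7% of all tested genes. Hmox1, heme oxygenase, stood at 4.89 and 4.36 RPM and then at 14.3 and 14.9 RPM (1.65, SE 0.15), and the mitochondrial enzymes Txn2 and Sod2 rose by 1.84 and 0.95. The cytosolic Sod1 went from 211 and 228 RPM to 97.3 and 106 RPM (-1.11, SE 0.07), and Prdx1 from 734 and 738 RPM to 365 and 364 RPM (-1.01, SE 0.07). Prdx3 (-0.07) was not called, and after length and GC correction it was higher (0.29, edgeR, adjusted p = 0.00599).

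Cell cycle entry genes rose in 8 of 26 cases, a share close to the 29.3% of all tested genes. They fell in 4 cases, where 26.7% of all tested genes fell. The G1 genes Ccnd2 (468 and 506 RPM, then 891 and 1013 RPM), Cdk6 (78.4 and 87.5 RPM, then 159 and 156 RPM) and Cdc25a (1.09) rose. Ccne2, a cyclin of the entry into S phase, fell from 74.3 and 65.3 RPM to 30.9 and 27.7 RPM (-1.25, SE 0.10). Without scrambled replicate 1 or Pcbp1 hairpin replicate 2, 2 members fell, and Rbl1 (-0.39) was among the calls lost (-0.37 and -0.32). In the BCL2 family 9 of 19 fell and 3 rose (median -0.36). Bcl2l11, or BIM, a trigger of apoptosis, rose from 71.4 and 77.4 RPM to 135 RPM in both (0.86, SE 0.07), as did the effectors Bax (0.50) and Bak1 (0.45). The survival genes Bcl2 (172 and 187 RPM, then 132 and 130 RPM), Bcl2a1d (-1.02) and Bcl2a1b (-0.94) fell, and Bcl2l1 was not called (-0.27). Bcl2a1b and Bcl2a1d are near-identical copies, so reads may be split between them, and Bcl2a1b was at -0.33 after length and GC correction.

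Genes of cytotoxic granules and intracellular serpins fell in 10 of 22 cases and rose in 4 (median -0.45). Nkg7, a granule membrane protein of killer cells, stood at 79.8 and 60.4 RPM and then at 383 and 282 RPM (2.25, SE 0.17, edgeR, adjusted p = 4.43e-05). Srgn, the proteoglycan that packs granule contents, fell from 4335 and 4510 RPM to 1966 and 2072 RPM, and Serpinb6a from 28.7 and 23.6 RPM to 10.2 and 9.43 RPM. The granzymes followed the replicate number. Gzmb stood at 2333 and 1623 RPM and then at 1773 and 1261 RPM, and Gzma at 144 and 61.1 RPM and then at 93.1 and 38.7 RPM, and neither was called. At each replicate number both were lower with the Pcbp1 hairpin. Without a filter on low counts (26808 genes) both were called (edgeR, -0.41, adjusted p = 1.79e-09, and -0.67, adjusted p = 2.63e-12). With a replicate block both were called as well (edgeR, -0.38, adjusted p = 5.39e-04, and -0.64, adjusted p = 2.23e-06), though the labels give only a shared number. The values of the groups overlapped for both genes, so none of these calls means that all libraries of the hairpins were apart. Their values were -0.62 and -1.13 without scrambled replicate 2 and -0.65 and -1.40 without Pcbp1 hairpin replicate 1. A fit with 1 library left out holds unequal replicate numbers in the groups, so hairpin and replicate number cannot be told apart in it. Perforin, Prf1, singled out after its values were seen, was at 37.1 and 12.1 RPM and then at 53.3 and 11.7 RPM. Without scrambled replicate 1 the Gzma value was 0.11. The CD8 genes had the same split by replicate number, and their part in these values was not tested. The rise of Serpinb1a (1.01) did not hold without scrambled replicate 2 (0.72) or Pcbp1 hairpin replicate 1 (0.90), where 2 members rose.

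**Figure D4:**
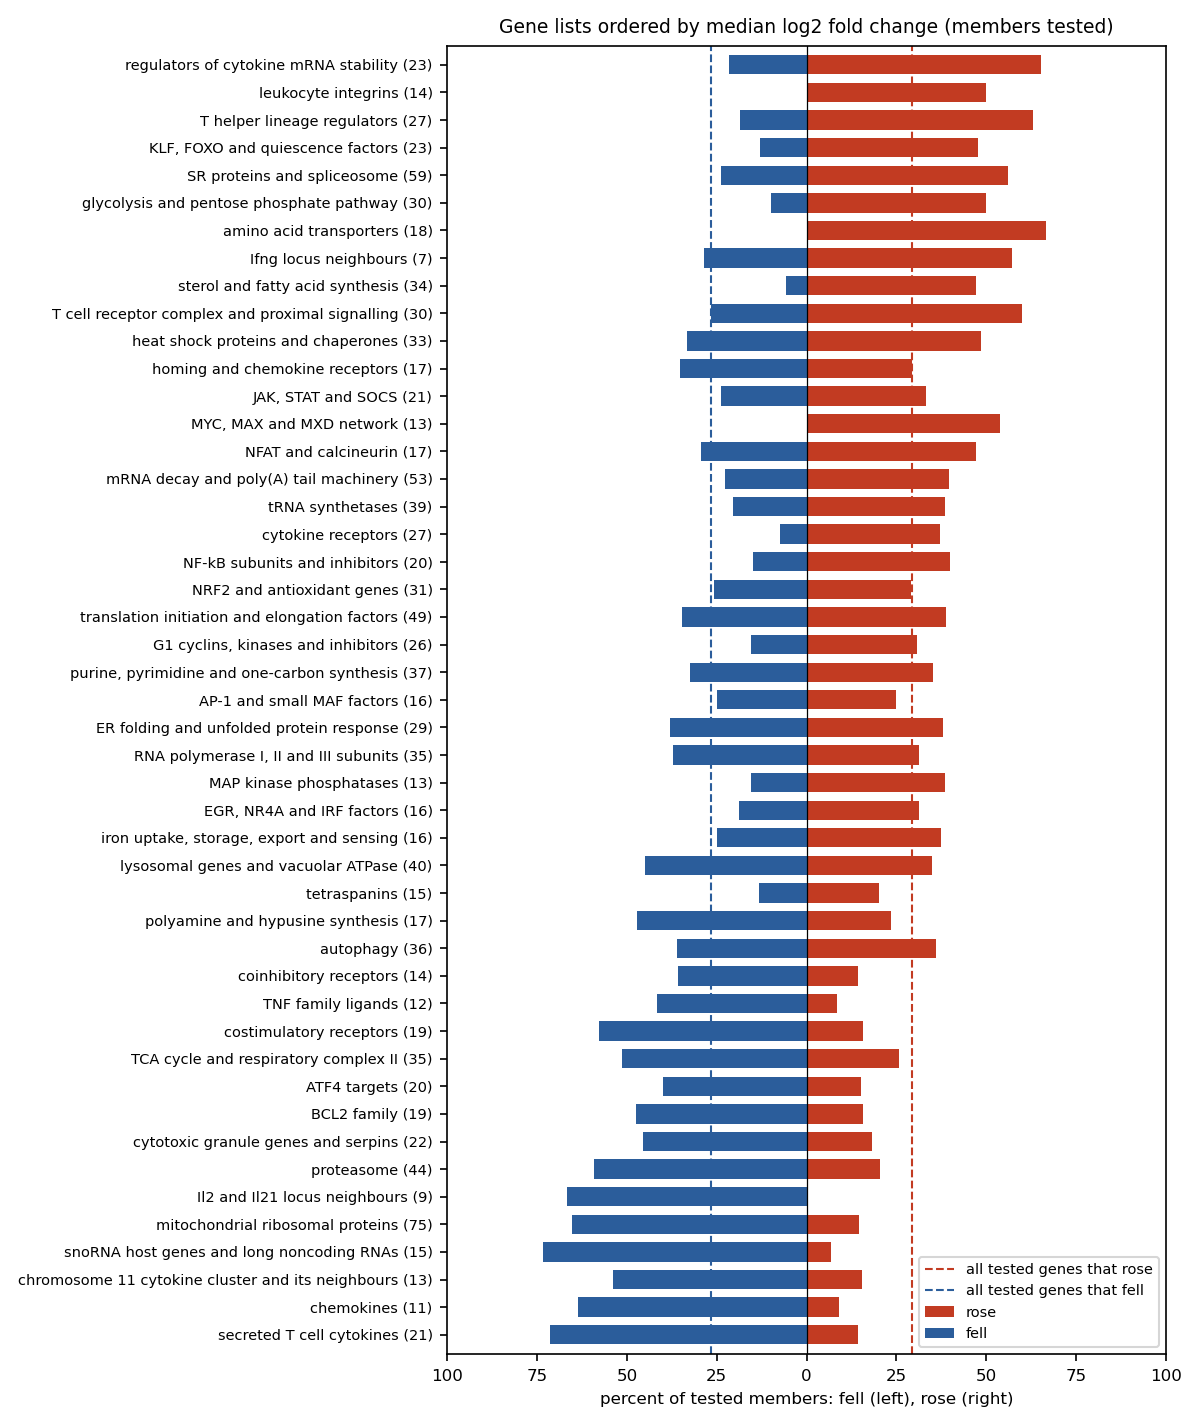
Percent of the tested members of 47 gene lists that fell (blue, to the left) and rose (red, to the right), with the number tested in brackets and the lists ordered by median log2 fold change. Dashed lines mark the shares over all tested genes, 26.7% that fell and 29.3% that rose. Cytokines, chemokines and the chromosome 11 cluster lie at 1 end and regulators of cytokine mRNA stability and integrins at the other. The chromosome 11 list shares Il3, Csf2, Il5, Il13 and Il4 with the cytokine list.

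Side by side, the lists differed in how their shares of rises and falls compared with those of all tested genes, described here by counts alone. Lists with more falls than the 26.7% of all genes and fewer rises than the 29.3% included the cytokines, chemokines, costimulatory receptors, snoRNA hosts, mitochondrial ribosomal proteins and proteasome. Lists with more rises and fewer falls than all genes included the lineage regulators, integrins, amino acid transporters, glycolysis, sterol synthesis and quiescence genes. In the translation factors, RNA polymerases, ER genes and nucleotide synthesis lists both shares lay above those of all genes, and medians were between -0.02 and 0.04. Both shares also went with read level over all tested genes. In the lowest of 5 equal bins by mean RPM 12.1% rose and 11.8% fell, and in the highest 36.4% rose and 41.3% fell. The part of read level in the shares of the lists was not tested.

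The direction of change went with transcript length and base composition. The tested genes with an annotated transcript were put into 5 bins of equal size by length and, separately, by GC content. In the bin of the shortest (median length 1056 bases) 11.9% rose and 41.4% fell, and in that of the longest (median 6632 bases) 47.9% rose and 13.9% fell. The median log2 fold change went from -0.35 to 0.31 across the 5 bins. In the bin of lowest GC content (median 41.1%) 16.5% rose and 46.9% fell, and in that of the highest (median 57.4%) 36.2% rose and 14.5% fell.

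**Figure D5:**
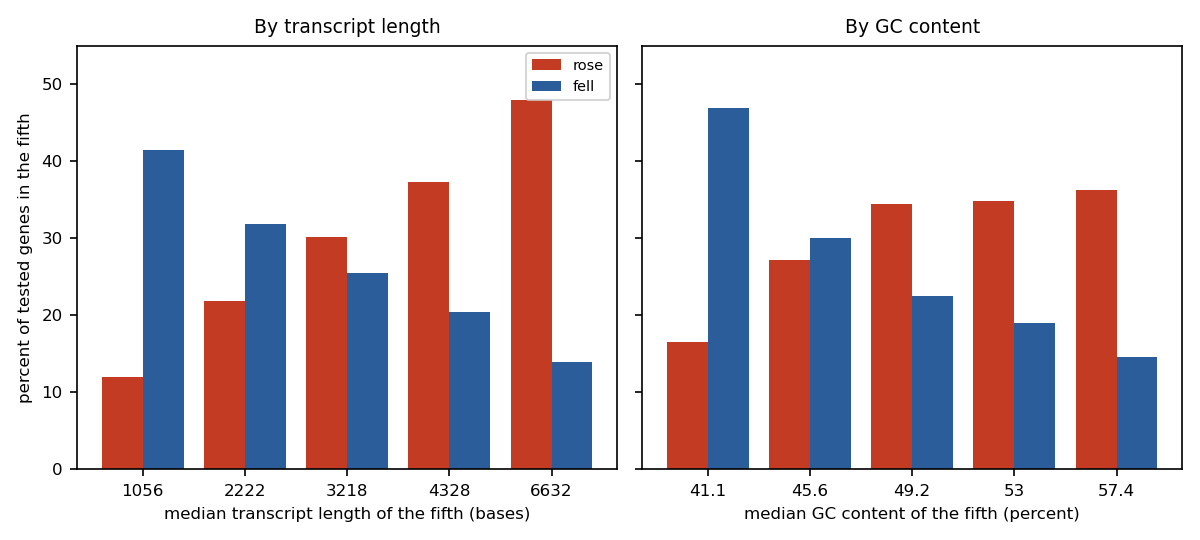
Percent of tested genes that rose (red) and fell (blue) in 5 equal bins of transcript length (left, labelled with the median length in bases) and of GC content (right, labelled with the median percent). Rises go from 11.9% to 47.9% and falls from 41.4% to 13.9% from the shortest to the longest bin.

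When smooth trends on length and GC content were taken out of each library, 5533 genes were called (2994 rises and 2539 falls), and the 2-fold falls dropped from 502 to 260. The cytokine median moved from -1.17 to -0.63, the mitochondrial ribosomal protein median from -0.48 to -0.28 and the proteasome median from -0.46 to -0.24. The median of the regulators of cytokine mRNA stability moved from 0.61 to 0.49, that of the splicing genes from 0.48 to 0.42 and that of the quiescence genes from 0.49 to 0.48. In these 6 lists the sign of the median did not change. In other lists it did, such as the cytokine receptors (0.13 to -0.03) and the NF-kB genes (0.08 to -0.01). The median of the integrins moved from 0.60 to 0.28 and that of the glycolysis genes from 0.46 to 0.23. The cause of the length and GC trends was not tested.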

How the data were processed

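RNA of 4 libraries of Th1 cells was compared, 2 with a scrambled hairpin and 2 with a hairpin against Pcbp1. Per the submitters' processing notes the tools were STAR, HTSeq, cutadapt and DESeq and the build was mm9, without versions or settings. The deposited table that is named RPM holds, for these libraries, whole-number counts per gene that sum to different totals, as its values show. In the other libraries the deposited values are counts rescaled by a common factor, a score used only to match lines to genes. After 1 line that holds the same value in every library, gene labels were displaced, so each line with at least 10 reads was matched to a gene through the mean normalized signal in the authors' result tables. Of 14805 such lines 14404 matched 1 gene, 401 several and 0 none. Of 7227 lines matched to 1 gene after it 7226 carried another gene's label. The authors' result tables hold numbers in place of 25 gene names.

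Genes that reached 1 RPM in 2 or more libraries were tested with edgeR 4.0.16 (quasi-likelihood, TMM scaling) in R 4.3.3. Printed RPM are TMM-scaled. Called means a Benjamini-Hochberg adjusted p under 0.05 over all 11575 tested genes. The biological coefficient of variation was 0.0898. On simulated data of the same depth, edgeR recovered 43.3% of 1.5-fold, 80.6% of 2-fold and 93.9% of 4-fold changes and called 0.123% of unchanged genes. limma 3.58.1, DESeq2 1.42.0 and further alternatives are described in the closing section. Promoter sequences and gene types come from RefSeq (GRCm38.p6), and lengths and GC content from the longest annotated transcript, known for 97.6% of tested genes. Length and GC trends were fitted with mgcv 1.9.3. Members and gene lists were chosen with earlier results of these data known. Named genes were Pcbp1 and Pcbp2, the 15 largest changes per direction at 5 RPM or more with groups apart, the 10 largest gains and losses of RPM, every cytokine, TNF ligand and locus gene, the 5 largest noncoding changes per direction, and up to 3 called members per direction and 2 uncalled members of each list. Genes named outside this rule were chosen after their values were seen. The libraries of the other experiment in the series were not compared here.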

Additional observations from a re-analysis of the deposited data

How the results depend on the processing

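The alternatives were another scaling (median ratio, library totals only, quantile normalization in limma, or totals in limma-trend), DESeq2, removal of mitochondrial ribosomal RNA, other filters, another assignment of ambiguous lines, a replicate block, a correction for length and GC content, and leaving out each library. The count of called genes was 5095 with DESeq2 and 5497 to 5762 with 1 library left out. Rises then numbered 2850 to 3034 and falls 2611 to 2728. The genes at least 2-fold lower, 502 in all, numbered 311 with library totals only, 220 with limma-trend without TMM and 260 after length and GC correction. 81.7%, 84.8% and 76.2% of the 2-fold calls were then rises. Same-numbered libraries deviated together (correlation 0.289 over 2 pairs), but the labels give only a shared number. With the replicate block 7348 genes were called, 3787 rises and 3561 falls, and of 410 named genes 30 gained a call and 0 lost one. Those that gained one with the block included Gzma (-0.64, edgeR, adjusted p = 2.23e-06), Gzmb (-0.38, 5.39e-04), Cxcr3 (0.41, 3.64e-04) and Bcl2l1 (-0.27, 8.06e-04). With the block 6 cytokine receptors fell (2 without it), as did 6 MAP kinase phosphatases (2, with Dusp2 and Dusp6 gained) and 4 sterol genes (2), and 8 homing receptors (5) and 5 ATF4 targets (3) rose. DESeq2 lost 15 calls of these genes. The length and GC correction lost 26 with the direction kept, and also those of mt-Rnr1, mt-Co1, Ccl3 and Chuk. For the most abundant genes quantile normalization compares ranks and not levels. Directions turned with it for mt-Rnr1 (0.23), Ccl3 (0.16), Ccl4 (0.52) and Slfn2 (0.29), while 7SK was at 0.00, which is no direction. After length and GC correction they turned for mt-Rnr1 (0.33), mt-Co1 (0.04), Ccl3 (0.13), Chuk (0.08), Prdx3 (0.29), Stat5a (-0.27), Slc38a10 (-0.25) and the coinhibitory receptor gene 4632428N05Rik (-0.34). Lars2 ranged from -1.48 without Pcbp1 hairpin replicate 2 to 1.18 without scrambled replicate 1. Fewer samples enter each left-out fit. For the other changes the cause was not tested.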
